A study of Mus musculus and synthetic construct with 15 samples.

Results

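Candidate enhancers at 5 mouse genes of the Wnt pathway were followed through a reporter assay in the neonatal heart. The members are the regions of the library whose midpoint has the body of Wls, Trabd2b, Nkd1, Cxxc5 or Tcf7l1 as its nearest protein-coding gene, at no more than 100 kb, by RefSeq's GRCm38 gene models. They number 24 of the 3820 regions: 2 at Wls, 8 at Trabd2b, 1 at Nkd1, 7 at Cxxc5 and 6 at Tcf7l1. A mean of at least 10 counts in the virus DNA, the minimum for the tests, was met by 21 of them, out of 2601 regions in all. The member farthest from its gene was Wls region 1, at 57143 bp, and the nearest region beyond 100 kb lay 106192 bp from Tcf7l1. Regions are numbered along the chromosome at each gene. Of the 24, 18 lie inside the gene body, against 1908 of the 3820 regions inside a gene, and 7 overlap a long noncoding RNA gene as well: Trabd2b region 2 (Gm33710), Tcf7l1 regions 2 to 4 (Gm31391) and 6 (Gm31249), and Cxxc5 regions 4 and 5 (Gm41693). The nearest gene is a label of position, and no link between a region and the expression of that gene was measured.

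In a massively parallel reporter assay, many candidate sequences are pooled in 1 vector and the RNA each of them drives is counted against its DNA. The pool was packaged in AAV9, an adeno-associated virus that infects heart muscle, and given to wild-type (WT) mouse pups on postnatal day 0. The groups were RNA from atria (5 libraries), RNA from ventricles (5 libraries), both taken on postnatal day 7 and labelled as cardiomyocytes, and DNA of the AAV9 library itself (5 libraries). The labels do not name separate animals behind the replicates, so the spread between libraries may be technical. The counts are of reporters only, so no endogenous marker RNA was there to check the tissue labels against. Each region is 400 bp of the mm10 genome.

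Wnt proteins are secreted signals. Wls carries them to the cell surface, Trabd2b is a membrane protease that clips and inactivates them outside the cell, and the receptors pass the signal to Dishevelled in the cytoplasm, where Nkd1 and Cxxc5 bind and restrain it. When beta-catenin is stabilised it enters the nucleus and acts on TCF/LEF factors, of which Tcf7l1 works mainly as a repressor of Wnt target genes. In the heart the pathway is known for its stage-dependent part in cardiac progenitors and for its role in valve formation.

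The 5 genes were proposed with results of these counts already known, and which measure was used is not recorded. All 3 contrasts are therefore given as a description: a call below means that a region passed an adjusted p of 0.05 in a fit over all 2601 regions, and no p-value is given for a member. RNA and DNA levels are CPM, counts scaled to a common library size, after TMM scaling over all 15 libraries, and log2 ratios are from edgeR fits that scale only the 10 libraries compared, so that ratios of the printed means can differ slightly from them. A ratio to DNA is relative to the bulk of the library. For a single region, fewer cells that carry or express it and less RNA per cell cannot be told apart in such tissue counts.

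Total counts ran from 877773 to 2369985 in atrial RNA, from 1271527 to 3781726 in ventricular RNA and from 2312820 to 2958271 in DNA. The replicate 1 RNA libraries stood apart. The 1219 regions that miss the DNA minimum took up 0.883% of atrial replicate 1 and 1.08% of ventricular replicate 1. In the other atrial libraries they took up 10.7% to 12.2%, and in the other ventricular libraries 12.4% to 12.9%. For the DNA libraries this was 0.0710% to 0.0966%. RNA of replicates 2 to 5 thus contained regions that the DNA libraries nearly lacked, and 3 of the 24 members were among them. Whether the DNA libraries match the virus behind replicates 2 to 5 was not tested. This limits every ratio to DNA given below, for tested members too.

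Between the chambers, 8 of the 21 members were called higher in atrium and 4 lower, and 9 did not pass. Over all 2601 regions 30.9% were called, 15.8% higher and 15.1% lower, and nothing is read from the difference because the genes may have been chosen on this contrast. The members' median log2 atrium over ventricle was 0.08 against 0.03 for all regions. All changes were moderate, with log2 values between -1.07 and 0.98. The chambers' libraries were fully apart in 11 of the 21 members (23.0% of all regions). Leaving out replicate 1 of both chambers gave the same 8 and 4 regions. The 5 loci differed in pattern: both Wls regions and 3 of 5 at Tcf7l1 leaned to atrium, Trabd2b and Cxxc5 each held regions of both kinds, and the Nkd1 region did not pass.

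**Figure D1:**
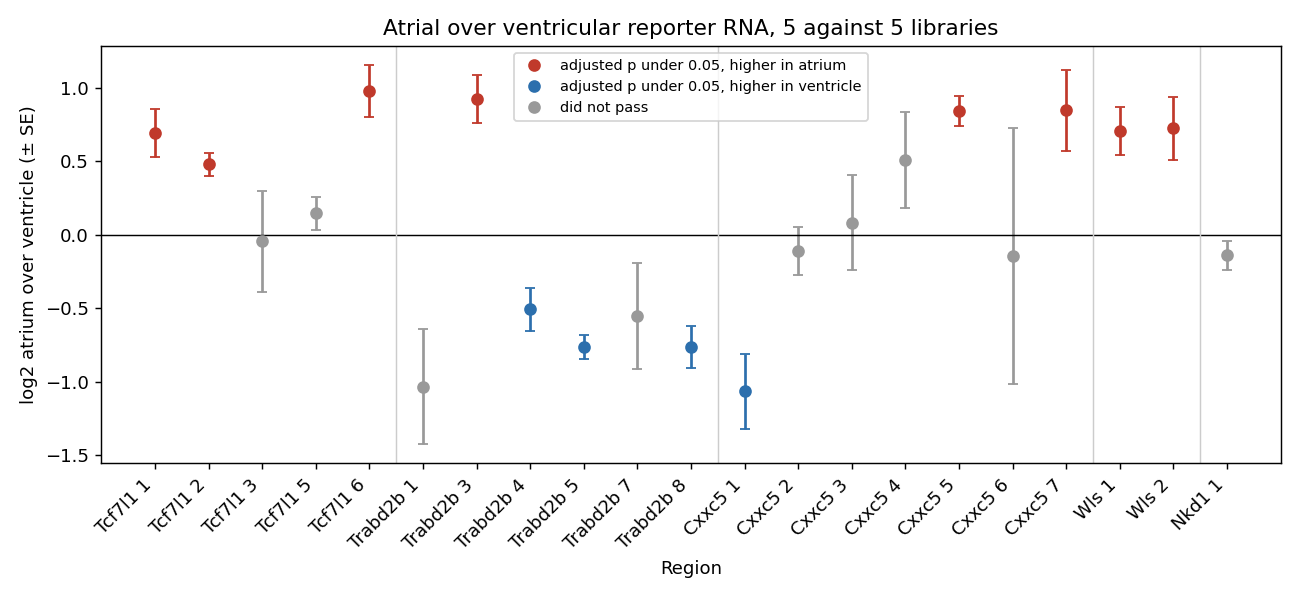
Log2 ratio of atrial over ventricular reporter RNA for the 21 members tested, with the standard error of the edgeR fit over 5 and 5 libraries; red marks the 8 called higher in atrium, blue the 4 called higher in ventricle and grey the 9 that did not pass. The values lie between -1.07 and 0.98, and Trabd2b and Cxxc5 have points on both sides of 0.

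Against DNA, 7 members were called higher in atrium, 7 lower, and 7 did not pass. Of all regions 74.7% were called in atrium, 38.4% as higher and 36.3% as lower. In ventricle 9 members were called higher and 9 lower, and of all regions 81.2% were called, 43.4% as higher and 37.8% as lower. RNA and DNA libraries were fully apart in 13 members for atrium (60.4% of all regions) and in 17 for ventricle (70.0%). The members' median log2 ratio was 0.03 in atrium and -0.21 in ventricle, against 0.04 and 0.13 over all regions. The sets overlapped: 7 members were higher in both chambers and 6 lower in both, and none was called in opposite directions, with the same DNA libraries behind both contrasts. The share of all regions called alike in both chambers was not worked out, so nothing is read from these joint counts. The 7 higher in both were Wls region 2, Trabd2b regions 4, 5 and 8, Cxxc5 region 5, and Tcf7l1 regions 3 and 5. The atrial split depended on scaling: library totals in place of TMM gave 13 higher and 5 lower, and scaling on the regions the authors class as Neg gave 12 and 5, with the median of all regions at 0.51 and 0.44 on the log2 scale in place of 0.04. The shares of all regions called under these scalings are not given here, so nothing particular to the members is read from the shift.

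**Figure D2:**
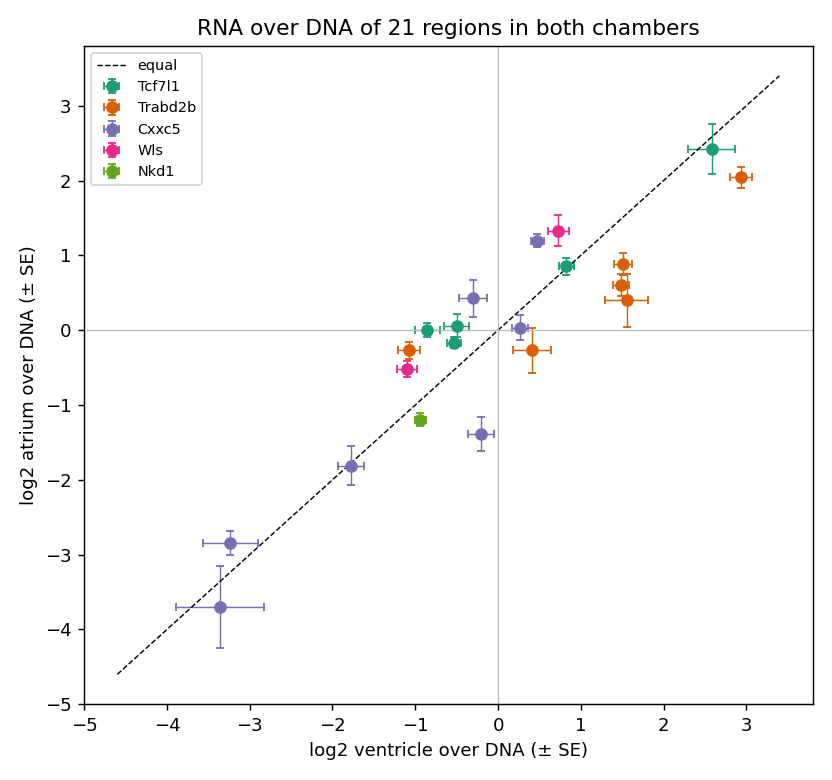
Log2 RNA over DNA of the 21 members in atrium (vertical) and ventricle (horizontal), coloured by nearest gene, with standard errors of the edgeR fits; the dashed line marks equal values. Both axes share the 5 DNA libraries; the Trabd2b points lie mostly below the line and the Wls points above it.

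Wls, the carrier that ferries Wnt ligands through the secretory pathway, lies on chromosome 3 (chr3:159839650-159938666). Region 1 (chr3:159782308-159782707) is 57143 bp upstream of its start site, outside the gene, and region 2 (chr3:159885196-159885595) is inside it, 45745 bp downstream of the start. Region 1 had 154, 171, 194, 182 and 181 CPM in atrial replicates 1 to 5, against 105, 84.8, 132, 113 and 113 CPM in ventricular ones. No atrial value fell as low as a ventricular one, and the log2 atrium over ventricle was 0.71 ± 0.16 (SE), 1.63-fold. DNA stood above both, at 241, 229.7, 258, 228 and 218 CPM, so the region was below DNA in atrium (-0.51 ± 0.11) and in ventricle (-1.10 ± 0.12). Among the 1177 regions with 300 or more DNA counts, its ratio was above 54.1% in atrium and 33.3% in ventricle. The atrial call against DNA was lost with library totals (-0.034), Neg scaling (-0.11) or at least 100 DNA counts (-0.088).

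Region 2 inside Wls was the more active one. It had 147, 178, 179.8, 338 and 252 CPM in atrium, against 143, 144, 122, 152 and 111 CPM in ventricle and 83.3, 83.4, 74.8, 86.6 and 77.2 CPM in DNA. Every RNA library was above every DNA library, and the chambers overlapped. Its log2 RNA over DNA was 1.33 ± 0.21 in atrium and 0.73 ± 0.13 in ventricle, and its log2 atrium over ventricle was 0.72 ± 0.21. Atrial replicates 4 and 5 were the highest, and the chamber call was lost without replicate 4 (0.56) or replicate 5 (0.60). In replicate 1 alone the log2 difference between chambers was 0.03, against 0.80 in replicates 2 to 5. The count ratio of region 2 to region 1 within a library, which no scaling can change, was 1.23 ± 0.394 in atrium, 1.26 ± 0.317 in ventricle and 0.346 ± 0.0337 in DNA (SD, n = 5 each). The atrial and ventricular ratios overlapped, and both lay above every DNA library.

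Trabd2b, the protease that inactivates Wnt proteins, held the member with the highest ventricular ratio to DNA and 3 of the 4 members called lower in atrium. The gene spans chr4:114406682-114615098, and its 8 regions lie within it except region 1, which is 35299 bp outside. Of the 6 tested, 1 was higher in atrium, 3 were lower, and 2 did not pass. Region 5 (chr4:114460319-114460718) had 863, 956, 913, 959 and 852 CPM in atrial libraries, against 1733, 1734, 1453, 1523 and 1365 CPM in ventricular libraries and 188, 235, 141, 234 and 222 CPM in DNA. The 3 groups were fully apart, with ventricle on top and DNA at the bottom. Ventricular RNA was 7.64-fold over DNA (log2 2.93 ± 0.13) and atrial RNA 4.13-fold (2.04 ± 0.14). Among the 1177 regions of 300 or more mean DNA counts, its ratio to DNA was above 98.9% of them in ventricle and 97.5% in atrium. Atrium over ventricle was -0.76 ± 0.08 on the log2 scale, 1.70-fold lower in atrium.

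Regions 4 and 8 followed the same order of groups. Region 4 (chr4:114454736-114455135), 5.58 kb from region 5, had 174, 127, 153, 147 and 137 CPM in atrium, against 188, 245, 219, 196 and 212 CPM in ventricle. Region 8 (chr4:114500960-114501359) had 191, 175, 285, 237 and 216 CPM in atrium, against 401, 347, 362, 379 and 409.9 CPM in ventricle. In both regions every atrial value lay under every ventricular one, and DNA was lower still, at 74.4 ± 2.21 and 136 ± 12.6 CPM (SD, n = 5). Their log2 atrium over ventricle was -0.51 ± 0.15 and -0.76 ± 0.14, and their log2 ventricle over DNA 1.51 ± 0.11 and 1.48 ± 0.10. The region 4 call was lost without replicate 2 (-0.41) and with scaling on the Neg regions (-0.34), a scaling that moves the median of all regions from 0.03 to 0.19.

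Region 3 (chr4:114435261-114435660), 19.5 kb before region 4, ran the other way. It had 341, 249, 318, 262 and 305 CPM in atrium, against 127, 138, 214, 143 and 160.3 CPM in ventricle and 361, 331, 333, 305 and 322 CPM in DNA. Each atrial library was above each ventricular one, and the log2 atrium over ventricle was 0.93 ± 0.17. Ventricular RNA was below DNA at -1.07 ± 0.13. The atrial value of -0.27 ± 0.11 also passed, but it did not pass when any 1 replicate number was left out, and it turned positive with library totals (0.21), Neg scaling (0.14) or a minimum of 100 DNA counts (0.15). Among regions with 300 or more DNA counts, the ratio to DNA of region 3 was above 63.2% in atrium and 34.6% in ventricle. The count ratio of region 5 to region 3 within a library was 2.53, 3.84, 2.87, 3.66 and 2.80 in atrium, against 13.7, 12.6, 6.77, 10.6 and 8.52 in ventricle. These ranges did not overlap, and DNA was at 0.622 ± 0.144. The lack of overlap follows from the choice of the pair, because each region alone was fully apart between chambers, in opposite directions. It is no separate support. Scaling between libraries does not enter this ratio.

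Regions 1 and 7 were thin in DNA, with mean counts of 14.8 and 37.2. Region 1 had 5.49 to 14.6 CPM in atrium and 17.6 to 26.2 CPM in ventricle, which did not overlap, but its log2 atrium over ventricle of -1.03 ± 0.39 did not pass with edgeR, though it did with DESeq2. Its ventricular RNA was over DNA at 1.56 ± 0.26. Regions with 10 to under 100 DNA counts had a median of 1.43 in ventricle, and region 1 was above 52.5% of them. Region 7 had 8.32 to 23.2 CPM in atrium and 20.2 to 29.8 CPM in ventricle and passed in none of the 3 contrasts, but it was called higher in ventricle than DNA with library totals (0.78) and Neg scaling (0.56). Summed over the 6 tested regions, the locus gave 1597 ± 65.2 CPM in atrium, 2353 ± 136 CPM in ventricle and 769 ± 34.3 CPM in DNA (SD, n = 5 each). Region 5 made up 56.9% of the atrial and 66.4% of the ventricular sum, but 26.6% of the DNA.

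**Figure D3:**
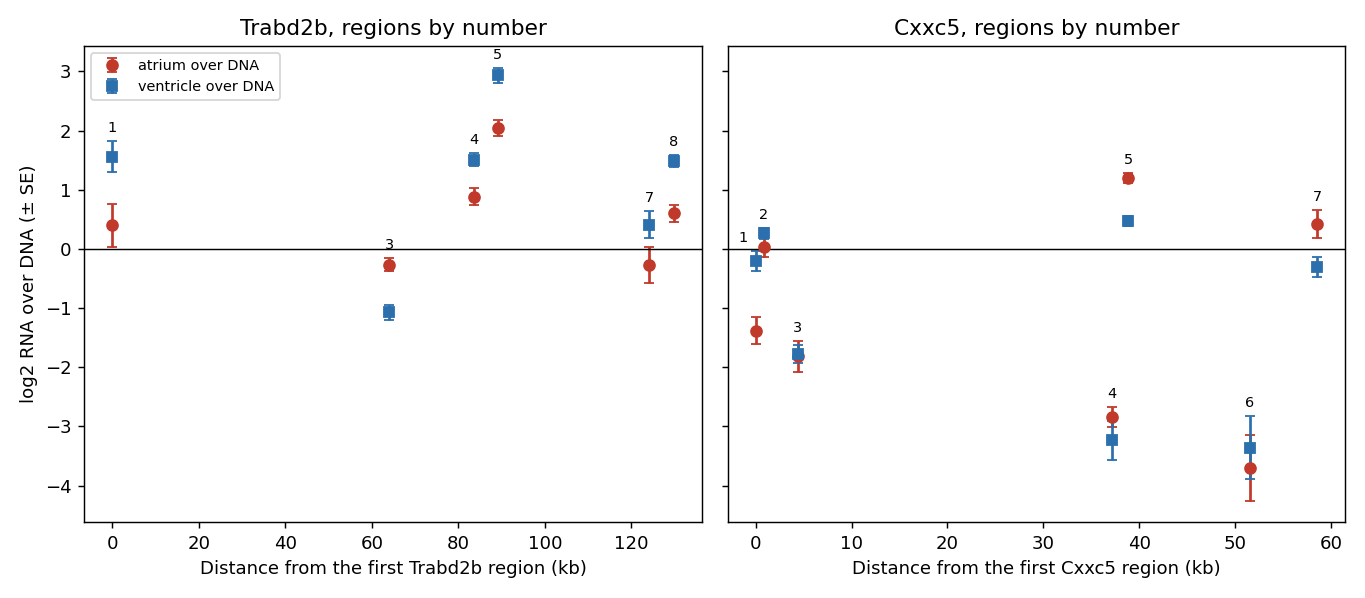
Log2 RNA over DNA (± SE) in atrium (red circles) and ventricle (blue squares) for the tested Trabd2b and Cxxc5 regions, by distance in kb from the first region of each locus, with the region's number above it. At Trabd2b the ventricular value is the higher one except at region 3; at Cxxc5 the order turns between region 1 and regions 5 and 7.

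Nkd1, a feedback inhibitor that is itself switched on by Wnt signalling, had 1 region, inside the gene (chr8:88521342-88594887) and 40303 bp downstream of its start site (chr8:88567737-88568136). It had 439, 399.6, 399, 486 and 398 CPM in atrium, against 502, 465, 485, 434 and 475 CPM in ventricle and 887, 899, 916, 889 and 929.9 CPM in DNA. RNA was below DNA in every library, by a log2 ratio of -1.19 ± 0.08 in atrium and -0.94 ± 0.07 in ventricle. The chambers overlapped, and the log2 difference of -0.14 ± 0.10 did not pass. The mean DNA count was 1933. Its RNA over DNA was above 28.0% of the regions with 300 or more DNA counts in atrium and above 39.7% in ventricle. The median of that class was -0.66 in atrium and -0.69 in ventricle.

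Cxxc5, a zinc-finger protein that restrains Dishevelled, had log2 RNA over DNA from -3.70 to 1.20 in atrium and from -3.36 to 0.47 in ventricle. Its gene spans chr18:35829379-35861693, with regions 1 to 3 inside and regions 4 to 7 at 11847 to 33270 bp beyond it. Region 5 (chr18:35875071-35875470) was the strongest, with 1430.0, 1754, 1755, 1935 and 1474 CPM in atrium, against 885, 847, 919.7, 1126 and 933 CPM in ventricle and 647, 659.7, 684, 693 and 707 CPM in DNA. The groups did not overlap, with atrium on top. Its log2 ratio to DNA was 1.20 ± 0.09 in atrium and 0.47 ± 0.08 in ventricle, and its log2 atrium over ventricle was 0.84 ± 0.10, 1.79-fold.

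Region 1 (chr18:35836188-35836587) had the largest ventricular excess among the called members. It had 44.7, 27.4, 32.5, 35.6 and 59.8 CPM in atrium, against 80.7, 70.5, 80.3, 77.1 and 113 CPM in ventricle and 95.7, 83.4, 128, 88.4 and 91.2 CPM in DNA. Ventricular RNA did not pass against DNA (-0.21 ± 0.16), while atrial RNA was below it (-1.39 ± 0.23). The log2 atrium over ventricle was -1.07 ± 0.26, 2.09-fold lower in atrium. Region 2 starts only 827 bp further on, yet it did not pass between chambers (-0.11 ± 0.16). Set within each library, the count ratio of region 5 to region 1 was 32.0, 64.1, 54.1, 54.3 and 24.6 in atrium, against 11.0, 12.0, 11.5, 14.6 and 8.29 in ventricle, and 7.12 ± 1.10 in DNA. The atrial and ventricular ratios were fully apart. This follows from the choice of the pair, because each region alone was fully apart between chambers, in opposite directions. It is no separate support.

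Region 7 (chr18:35894764-35895163) had 88.4, 119, 86.4, 103 and 223 CPM in atrium, against 95.2, 66.1, 78.2, 52.2 and 58.0 CPM in ventricle. The groups overlapped, and the log2 atrium over ventricle was 0.85 ± 0.27. The call rested on few libraries: it was lost without replicate 2 (0.84), replicate 4 (0.81) or replicate 5 (0.46), and with no filter on DNA (0.90). In replicate 1 alone the log2 difference was -0.11, against 0.98 in replicates 2 to 5. The region passed against DNA in neither chamber, but atrial RNA was called higher with library totals (0.90), Neg scaling (0.82) or at least 100 DNA counts (0.85), and ventricular RNA lower with DESeq2 (-0.40), no filter (-0.53) or without replicate 1 (-0.44).

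Regions 3, 4 and 6 of Cxxc5 were far below DNA in both chambers. Region 6 (chr18:35887734-35888133) had 16.6, 5.95, 0.877, 1.90 and 1.83 CPM in atrium, against 2.18, 1.84, 6.92, 0.829 and 14.7 CPM in ventricle and 53.3, 56.2, 59.6, 53.9 and 60.0 CPM in DNA. This is 13.0-fold below DNA in atrium (log2 -3.70 ± 0.55), the lowest of the 570 regions with 100 to under 300 DNA counts, and 10.3-fold below in ventricle (-3.36 ± 0.53). The values rest on 35 atrial and 77 ventricular counts in all, and atrial replicate 1 and ventricular replicate 5 were the highest of their groups. Without replicate 1 the atrial log2 ratio was -4.51, and without replicate 5 the ventricular one was -4.17. Region 4, 1.73 kb from the active region 5, was also low, at 67.1 ± 13.8 CPM in atrium, 47.3 ± 26.4 CPM in ventricle and 449 ± 81.8 CPM in DNA, with log2 ratios to DNA of -2.84 ± 0.17 and -3.23 ± 0.33. Region 3 had -1.81 ± 0.26 and -1.77 ± 0.16. Regions 3, 4 and 6 did not pass between chambers, but region 4 was called higher in atrium without replicate 5 (0.82, against 0.51 with it). Region 2 was near DNA, at 0.03 ± 0.16 in atrium and 0.26 ± 0.09 in ventricle. The ventricular value of region 2 passed, but not with DESeq2 (0.17), with no filter on DNA (0.03), or without replicate 1 (0.22), 2 (0.23) or 4 (0.14).

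Tcf7l1, the mainly repressive TCF factor, spans chr6:72626371-72789045, and all 6 of its regions lie inside it, 48308 to 141296 bp downstream of the start site. Of the 5 tested, 3 were higher in atrium and 0 were lower with edgeR, also 0 at an unadjusted p under 0.05 and 0 with DESeq2. Region 6 (chr6:72740538-72740937) had 321, 319, 348, 333 and 279 CPM in atrium, against 140.3, 119, 241, 155 and 162 CPM in ventricle and 299.6, 303, 325, 274 and 286 CPM in DNA. Each atrial value was above each ventricular one, and the log2 atrium over ventricle of 0.98 ± 0.18, 1.97-fold, was the highest of the 21 members. Atrial RNA did not pass against DNA (0.01 ± 0.10), while ventricular RNA was below it (-0.86 ± 0.15).

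Regions 1 and 2 had the same form. Region 1 (chr6:72647550-72647949) had 229.8, 256, 328, 317 and 305 CPM in atrium, against 133, 161, 186, 205 and 212 CPM in ventricle. Region 2 (chr6:72655318-72655717) had 1538, 1554, 1491, 1493 and 1356 CPM in atrium, against 1018, 1042, 1229.8, 1008 and 1083 CPM in ventricle. Neither overlapped between chambers, with log2 atrium over ventricle of 0.69 ± 0.16 and 0.48 ± 0.08. Their DNA was 255 ± 46.2 and 1556 ± 156 CPM (SD, n = 5). The ventricular ratios to DNA of -0.50 ± 0.15 and -0.53 ± 0.08 passed and the atrial ones of 0.06 ± 0.15 and -0.17 ± 0.08 did not. Regions 1, 2 and 6 had 300 or more DNA counts, a class with a median of -0.66 in atrium and -0.69 in ventricle. Their ratios to DNA were above 74.0%, 67.1% and 72.6% of that class in atrium, and above 56.0%, 54.5% and 43.3% in ventricle. Under library totals, Neg scaling or a minimum of 100 DNA counts, atrial RNA of regions 1, 2 and 6 was called above DNA, the ventricular call of region 1 was lost under the first and the last of these, and that of region 2 under the last.

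Region 5 (chr6:72714804-72715203) was active without a chamber call. It stood at 552 ± 76.1 CPM in atrium, 504 ± 56.9 CPM in ventricle and 284 ± 12.0 CPM in DNA (SD, n = 5 each), with log2 ratios to DNA of 0.85 ± 0.11 and 0.82 ± 0.09 and a chamber difference of 0.15 ± 0.11. The count ratio of region 6 to region 5 within a library was 0.542, 0.637, 0.650, 0.707 and 0.422 in atrium, against 0.277, 0.224, 0.472, 0.277 and 0.397 in ventricle and 1.05 ± 0.112 in DNA. The atrial and ventricular ratios touched only at atrial replicate 5 and ventricular replicate 3. Region 3 (chr6:72662907-72663306) had the highest ratio to DNA at this locus. It had 19.8, 20.8, 45.6, 44.2 and 24.4 CPM in atrium, against 44.4, 31.2, 19.2, 39.2 and 30.0 CPM in ventricle and 6.22, 4.77, 4.67, 5.53 and 5.58 CPM in DNA, which gave 2.42 ± 0.33 and 2.58 ± 0.28 on the log2 scale. It is just inside the minimum, with a mean DNA count of 11.6, and regions with 10 to under 100 DNA counts had a median of 1.21 in atrium and 1.43 in ventricle to begin with. Region 4 is well outside it, with a mean DNA count of 2.80.

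**Figure D4:**
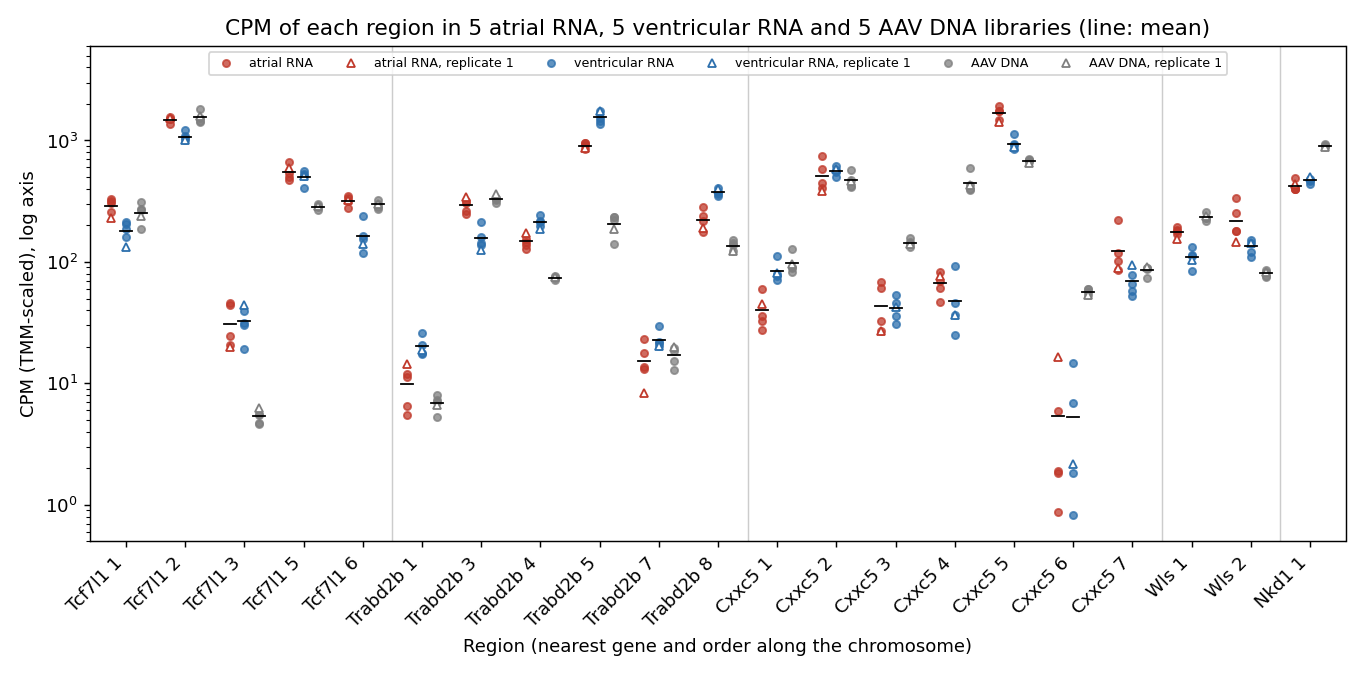
CPM of the 21 tested members (log axis) in atrial RNA (red), ventricular RNA (blue) and AAV DNA (grey), 5 libraries each; open triangles are replicate 1, filled circles replicates 2 to 5, and black lines the group means. DNA lies under both RNA groups at Trabd2b region 5 and above both at Cxxc5 regions 4 and 6 and at Nkd1.

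The 3 members below the DNA minimum all lie inside their genes. Trabd2b region 2 (chr4:114416356-114416755) had 0, 549, 723, 476 and 422 counts in atrial replicates 1 to 5 and 0, 836, 1177, 1081 and 969 in ventricular ones, against 0, 1, 0, 0 and 0 in DNA. Trabd2b region 6 (chr4:114485751-114486150) had 0, 69, 194, 161 and 123 counts in atrium, 0, 167, 148, 183 and 232 in ventricle and 0 in every DNA library, which allows up to 1.75 CPM on the TMM scale in the library with the highest limit. Tcf7l1 region 4 (chr6:72671199-72671598) had 0, 197, 337, 222 and 196 counts in atrium and 1, 331, 416, 508 and 376 in ventricle, against 5, 2, 4, 0 and 3 in DNA. RNA of all 3 was plentiful in replicates 2 to 5 and at 0 or 1 counts in replicate 1. No ratio to DNA is given for them. Whether these DNA libraries match the virus behind replicates 2 to 5 was not tested, for these 3 or for the tested members. The limit covers counting error only.

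As sums over the tested regions, the 5 loci had the following order of atrium over ventricle. Wls had 395 ± 84.6 CPM in atrium and 244 ± 17.3 in ventricle, a ratio of 1.62. Cxxc5 had 2463 ± 296 CPM in atrium and 1753 ± 125 in ventricle, a ratio of 1.41, and Tcf7l1 had 2676 ± 48.2 CPM in atrium and 1956 ± 136 in ventricle, a ratio of 1.37 (SD, n = 5 each). Within same-numbered pairs the ratios ran from 1.21 to 1.96 at Wls, 1.20 to 1.61 at Cxxc5 and 1.26 to 1.47 at Tcf7l1, so these 3 neighbours in the order overlap. Nkd1 at 0.898 and Trabd2b at 0.679 were below 1, with pairs at 0.823 to 1.12 and 0.614 to 0.736. A sum is led by its largest regions: region 5 held 67.8% of the atrial sum at Cxxc5 and region 2 55.5% at Tcf7l1.

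Likeness was measured as Pearson's r of summed log2 CPM over the 10 RNA libraries, against 154 other genes with at least 3 tested regions, as a description without a p. The libraries share depth and chamber. For Trabd2b the closest were Mical2 (r = 0.980) and Myh7, the slow myosin heavy chain (0.975). For Tcf7l1 they were Col4a2, a basement membrane collagen (0.984), and Camk1d (0.945). Cxxc5 was closest to Dagla (0.942) and Slit3 (0.928), Wls to Rbfox1 (0.951) and Sardh (0.895), and Nkd1 to Tgfb2 (0.831) and Nedd9 (0.780). Without replicate 1, over 8 libraries, the 10 values lay between 0.812 and 0.982.

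Of 97 other Wnt pathway genes, from ligands to nuclear factors, 20 were the nearest gene of a region and 15 had a tested one, 17 regions in all. Of these 17 regions, 4 were higher in atrium and 2 lower, again beside 15.8% and 15.1% of all regions. By role, the 1 ligand region and 1 of 7 cytoplasmic ones were higher, the 3 secretion or extracellular and the 5 receptor regions had 1 of each, and the 1 nuclear region did not pass. Set against DNA, atrial RNA was higher at 6 and lower at 8 of the 17, beside 38.4% and 36.3% of all regions. Ventricular RNA was higher at 6 and lower at 9, beside 43.4% and 37.8%. The median log2 atrium over ventricle of the 17 was 0.10.

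The largest atrial excess was inside Prickle1, a planar polarity protein (chr15:93518147-93518546), with 202 ± 72.7 CPM in atrium and 73.3 ± 26.8 CPM in ventricle, a log2 difference of 1.48 ± 0.30 (SD and SE, n = 5). A region 13101 bp from Porcn, which attaches the lipid that Wnt proteins need for secretion (chrX:8219450-8219849), had 261 ± 104 CPM in atrium and 134 ± 26.0 CPM in ventricle, a log2 difference of 0.97 ± 0.24. One inside Lrp6, the co-receptor of Frizzled (chr6:134489751-134490150), had 321 ± 71.1 CPM in atrium and 171 ± 11.8 CPM in ventricle, a log2 difference of 0.92 ± 0.16. On the ventricular side, a region 4315 bp from Kremen1, a receptor of Dickkopf inhibitors (chr11:5265829-5266228), had 310.4 ± 47.9 CPM in atrium and 556 ± 42.0 CPM in ventricle, a log2 difference of -0.82 ± 0.12, and one inside Ror1, a Wnt receptor tyrosine kinase (chr4:100216692-100217091), 110.1 ± 32.1 CPM in atrium and 186 ± 46.2 CPM in ventricle, a log2 difference of -0.73 ± 0.22. The remaining called region, near Wnt7b, had a log2 difference of 0.27. The chambers overlapped at Prickle1 (98.1 CPM in atrial replicate 2, 115 CPM in ventricular replicate 5). They also overlapped at Ror1 (162 CPM in atrial replicate 3, 142 CPM in ventricular replicate 5) and at Wnt7b. They were fully apart at Porcn, Lrp6 and Kremen1. Leaving out replicates was not examined for these regions. Nkd2 and Tcf7l2, paralogs of members, were picked after their values were seen. The region inside Nkd2 was below DNA in both chambers (-1.78 in atrium and -1.43 in ventricle), and so was the region 27600 bp from Tcf7l2 (-1.03 and -1.17). Their mean DNA counts were 1836 and 176. Regions with 300 or more DNA counts had a median of -0.66 in atrium and -0.69 in ventricle. Those with 100 to under 300 had 0.20 and 0.28. Neither the Nkd2 nor the Tcf7l2 region passed between chambers.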

How the data were processed

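The deposited values were whole-number counts per region in 15 libraries (5 atrial RNA, 5 ventricular RNA, 5 AAV DNA), used as the authors deposited them. Per the labels' protocols, nucleic acid was copied with a UMI primer and amplified. Per the submitters' processing notes, the tools were Bowtie2 (version 2.3.4.3) and cutadapt (version 2.5) and the build was mm10. No source used here says whether UMIs were collapsed, so limits from counts cover counting error only. The series table and the library files held the same counts (0 values differed).

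Each comparison was fitted with edgeR 4.0.16 in R 4.3.3 (robust quasi-likelihood, TMM) on its 5 and 5 libraries, over the 2601 regions that averaged 10 or more DNA counts, with Benjamini-Hochberg adjustment over all of them and calls at 0.05. Standard errors come from the log2 ratio and the F statistic. The members, the lists and the rule for named regions (in each gene, regions called between chambers and those with the highest and lowest RNA over DNA in full) were chosen with earlier results of these data known. Alternatives were other scalings, DESeq2 1.42.0, other DNA minimums, a replicate block, a 2-fold minimum and leaving out each replicate number. Deviations of same-numbered atrial and ventricular libraries from their group means correlated at 0.225 to 0.818, which met the 0.1 set for pairing. The highest correlation with another number was 0.223 for replicate 2 and 0.228 to 0.271 for replicates 3 to 5, where it exceeded that with the same number, so only replicate 1 stood out by its number. Those of RNA and DNA libraries did not (-0.0342 to 0.0591). Replicates differed by more than sampling noise (chi-square per degree of freedom at least 1.79). No region sequence was used here, so the planned motif scan was not run.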

Additional observations from a re-analysis of the deposited data

Results flagged for a closer look

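Some groups held 1 library far from the other 4 by Dixon's criterion at 95%, in 6 of the 63 groups of 5 examined, where chance gives about 1 in 20. Trabd2b region 7 had 29.8 CPM in ventricular replicate 4, against 20.2 to 21.8 CPM in the other 4. Cxxc5 region 1 had 113 CPM in ventricular replicate 5, against 70.5 to 80.7 CPM in the other 4. Cxxc5 region 1 had 128 CPM in DNA replicate 3, against 83.4 to 95.7 CPM in the other 4. Cxxc5 region 4 had 592 CPM in DNA replicate 3, against 394 to 432 CPM in the other 4. Cxxc5 region 7 had 223 CPM in atrial replicate 5, against 86.4 to 119 CPM in the other 4. Cxxc5 region 7 had 73.2 CPM in DNA replicate 4, against 87.2 to 90.6 CPM in the other 4. In both Cxxc5 region 1 and Cxxc5 region 4 the DNA library concerned was replicate 3.

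Reporter RNA differed between the chambers in 12 members, by the direct test of atrium against ventricle. On the log2 scale it was higher in atrium at Tcf7l1 region 6 (0.98), Trabd2b region 3 (0.93), Cxxc5 region 7 (0.85), Cxxc5 region 5 (0.84), Wls region 2 (0.72), Wls region 1 (0.71), Tcf7l1 region 1 (0.69) and Tcf7l1 region 2 (0.48). It was lower in atrium at Cxxc5 region 1 (-1.07), Trabd2b region 5 (-0.76), Trabd2b region 8 (-0.76) and Trabd2b region 4 (-0.51). The genes were chosen with these results known.

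RNA was present at the 3 members outside the tests although DNA was nearly absent. Summed over replicates 2 to 5, Trabd2b region 2 had 2170 atrial and 4063 ventricular counts against 1 DNA count in 5 libraries. Trabd2b region 6 had 547 and 730 against 0, and Tcf7l1 region 4 had 952 and 1631 against 14. These sums are not scaled for depth, which was greater in ventricular replicates 2 to 5. In CPM the atrial and ventricular means of replicates 2 to 5 were 282 and 323 for Trabd2b region 2. They were 69.4 and 58.9 for Trabd2b region 6, and 122 and 129 for Tcf7l1 region 4.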

How the results depend on the processing

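The count of members called higher in atrium than DNA, 7, became 13 with library totals, 12 with Neg scaling and 11 with at least 100 DNA counts, the minimum that leaves 18 members tested. With a 2-fold minimum added it was 4, the ventricular counts against DNA were 5 higher and 5 lower, and between chambers 0 were higher (0 members reached 2-fold at any p, with edgeR or DESeq2) and 1 was lower. The shares of all regions called under the alternatives are not given here, so these counts describe the members only. Leaving out 1 replicate number kept the counts at 7 higher and 6 lower for atrium over DNA, 8 to 9 and 9 to 10 for ventricle over DNA, and 6 to 8 and 3 to 4 between chambers. With replicate numbers as a block, the pairing gave 7 and 6, 9 and 9, and 8 and 4, and the call lost was Trabd2b region 3 in atrium over DNA. With library totals, log2 atrium over DNA changed sign at Trabd2b region 7 (0.20), Tcf7l1 region 2 (0.32) and Trabd2b region 3 (0.21). With Neg scaling, log2 atrium over DNA changed sign at Trabd2b region 7 (0.14), Tcf7l1 region 2 (0.23) and Trabd2b region 3 (0.14). With no filter, log2 atrium over DNA changed sign at Tcf7l1 region 1 (-0.064), Cxxc5 region 2 (-0.10) and Tcf7l1 region 6 (-0.13). With at least 100 DNA counts, log2 atrium over DNA changed sign at Tcf7l1 region 2 (0.26) and Trabd2b region 3 (0.15). With the replicate block, log2 atrium over DNA changed sign at Cxxc5 region 2 (-0.0048). With library totals, log2 ventricle over DNA changed sign at Cxxc5 region 1 (0.18) and Cxxc5 region 7 (0.072). With at least 100 DNA counts, log2 ventricle over DNA changed sign at Cxxc5 region 1 (0.19) and Cxxc5 region 7 (0.082). With Neg scaling, log2 atrium over ventricle changed sign at Nkd1 region 1 (0.025), Tcf7l1 region 3 (0.11), Cxxc5 region 2 (0.046) and Cxxc5 region 6 (0.053). With no filter, log2 atrium over ventricle changed sign at Cxxc5 region 6 (0.0024). With the replicate block, log2 atrium over ventricle changed sign at Cxxc5 region 3 (-0.010). Leaving out 1 replicate number, log2 atrium over DNA crossed 0 at Tcf7l1 region 1 -0.090 to 0.17, Cxxc5 region 2 -0.073 to 0.17 and Tcf7l1 region 6 -0.024 to 0.065, and log2 atrium over ventricle at Tcf7l1 region 3 -0.37 to 0.21, Cxxc5 region 2 -0.30 to 0.0017, Cxxc5 region 3 -0.24 to 0.22 and Cxxc5 region 6 -1.20 to 0.91. None of the values that changed sign was a call as first given, except Trabd2b region 3 in atrium over DNA. No member called between chambers changed sign under any alternative. The causes were not tested. Low DNA limits Tcf7l1 region 3 and Trabd2b regions 1 and 7, and low RNA limits Cxxc5 region 6.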

Other observations

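The identifiers of the regions carry tags of how they entered the library, used here as given. Of the 24 members, 20 carry GeneAVB (83.3%, against 29.5% of the library), 5 aMTF, 2 vMTF and 1 p300AVB, and none carries an ESC tag or the authors' class Neg, which holds 22.2% of the library. Of the 4 tested aMTF members, Wls regions 1 and 2 and Trabd2b region 3 were higher in atrium and Nkd1 region 1 did not pass. Of the 2 vMTF members, Tcf7l1 region 6 was higher in atrium, with the highest log2 difference of the 21 (0.98), and Tcf7l1 region 5 did not pass (0.15). The 3 ventricular regions at Trabd2b and the 1 at Cxxc5 carry GeneAVB alone. The 3 tested members in the authors' class spMTF or spP300 (Tcf7l1 region 1, Cxxc5 region 7 and Wls region 1) were all higher in atrium, and none of them was called higher than DNA in either chamber with TMM scaling. With library totals, Neg scaling or at least 100 DNA counts, Tcf7l1 region 1 and Cxxc5 region 7 were called higher than DNA in atrium. The atrial calls of Cxxc5 region 7 and Wls region 2 were each lost without some replicate numbers, as given above. Of all 2601 regions 15.8% were called higher in atrium. The called share among all library regions with the same tag or class was not worked out, so nothing is read about a tag or class. These counts are small, the genes were chosen with results known, and no test was made.

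Some neighbouring regions differed widely and others did not; the pairs here were picked after their values were seen. Cxxc5 regions 4 and 5 start 1.73 kb apart, with log2 RNA over DNA of -2.84 and 1.20 in atrium and -3.23 and 0.47 in ventricle. Cxxc5 regions 1 and 2 start 0.827 kb apart, at -1.39 and 0.03 in atrium but at -0.21 and 0.26 in ventricle. Trabd2b regions 7 and 8, 5.61 kb apart, had 0.41 and 1.48 in ventricle and -0.27 and 0.60 in atrium. Tcf7l1 regions 1 and 2, 7.77 kb apart, were close to each other, at -0.50 and -0.53 in ventricle and 0.06 and -0.17 in atrium.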
